A study of Mus musculus with 12 samples.

Results

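The 8 genes Apoe, Apod, Abca1, Abcg1, Lpl, Lrp1, Vldlr and Lrp8, whose products carry, release or take up lipoprotein lipid and cholesterol, were followed in mouse muscle stem cells (MuSCs), out of 55335 genes counted. They were grouped by function around Apoe, which was selected on its rise in compressed cells against cells left uncompressed to the same day. Hence the values of that comparison describe the choice and are given without a test. RNA was sequenced from 4 groups of 3 libraries each. All cells came from the hindlimb of Pax7-ZsGreen mice, a strain in which a green fluorescent reporter marks cells that express Pax7, and were sorted by that fluorescence. Freshly isolated cells (F) were sorted straight into the lysis reagent TRIzol. Cells cultured without compression, in growth medium with sera and FGF on plastic coated with Matrigel and fibronectin, were taken at day 2 (2d-U) and day 5 (5d-U). The 2+3d-C cells were cultured for 2 days without and then 3 days under a pillar device that presses on the cells from above. The study's methods give mice of 3 to 6 months. The labels do not say which libraries came from separate mice or sorts, so p-values measure the spread between these libraries, which may be technical.

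Lipoproteins are particles of lipid and protein that carry cholesterol and triglyceride between cells. Apolipoproteins such as ApoE sit on their surface and bind receptors such as Lrp1, Vldlr and Lrp8 on cells, lipoprotein lipase frees fatty acids from their triglyceride, and the transporters ABCA1 and ABCG1 pass cholesterol from cells to apolipoproteins and particles outside. In muscle, lipoprotein lipase is known for its part in the supply of fatty acids to fibers.

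The files held between 12540745 and 62424851 reads on genes per library, the 2 extremes both from 2+3d-C (replicates 5 and 4). Detection was taken to begin above 3 reads in a library. This limit covers counting error only, since PCR copies are not independent molecules. Levels are given as CPM (counts scaled to the library size after TMM scaling) or, so that genes of different length can be compared, as RPKM (the same per kb of exon). All 8 genes passed the filter on low counts, but not through every group. At the cut-off of 0.362 CPM, taken before TMM scaling, Abca1 passed in 0 of the 3 libraries of 2d-U, and Apod and Abcg1 each in 1. Since Abca1, Apod and Abcg1 reached the cut-off mainly outside 2d-U, the counts of members called below describe these 8 genes and nothing wider.

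Before the levels, 4 libraries have to be set apart. Genes such as olfactory receptors were taken, as families, to be near silent in muscle. Yet 2106 autosomal genes of this kind (receptors of smell and taste, Krtap and Defa genes) drew 3.81 reads per kb of exon in replicate 1 of 5d-U and 0.634 in replicate 6. In F they drew 5.03 in replicate 4 and 7.13 in replicate 5. The other 8 libraries had between 0.00936 and 0.22. Where a call on 1 of the 8 genes was lost without these 4 libraries, this is stated beside it, and the fit then holds a single library each of F and 5d-U, which is assumed to vary like the other groups.

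Markers of MuSCs were read in every library. Pax7, the transcription factor by which MuSCs are defined, was at 60.5 to 88.1 CPM in 2+3d-C and 8.92 to 21.6 in F, with 5d-U at 14.3 to 33.6 and 2d-U at 29.9 to 37.9. Myod1, the factor of myogenic commitment, was at 552 to 1109 CPM in F and 4153 to 8449 in 2+3d-C. In 2d-U it was at 1077 to 1377 CPM and in 5d-U at 1122 to 2374. By protein staining the paper counted more Pax7-positive cells without MyoD in 2+3d-C than in 2d-U and 5d-U. RNA and protein are unlike measures. Markers of other cell types were read too, and the endothelial, fibroadipogenic, glial and pericyte sums were at higher levels in F and 2+3d-C than in 2d-U in every library. The summed level of 10 endothelial markers was 1409 to 2296 CPM in F (most abundant gene Pecam1), 305 to 374 in 2+3d-C (Cldn5 or Tek), 12.5 to 16 in 2d-U and 8.39 to 47.3 in 5d-U (mostly Egfl7). That of 12 markers of fibroadipogenic cells was 2705 to 7913 CPM in F, with Dcn the most abundant, 709 to 1160 in 2+3d-C, 202 to 244 in 2d-U, nearly all of it Cd34, and 21.3 to 205 in 5d-U. Markers of Schwann and other glial cells summed to 498 to 858 CPM in F, 190 to 617 in 2+3d-C, 3.21 to 10.3 in 2d-U and 7.91 to 16.9 in 5d-U. The glial sum was led by Mbp in F and 2+3d-C. Markers of pericytes and smooth muscle summed to 794 to 1050 CPM in F, 451 to 793 in 2+3d-C, 68.3 to 89.9 in 2d-U and 66 to 743 in 5d-U. In 2+3d-C this sum was led by Notch3 (457, 78 and 375 CPM) and Acta2 (132, 274 and 275 CPM). In 5d-U it was led by Acta2 (45.1, 634 and 715 CPM). Notch3 is also a receptor that the paper examined in MuSCs.

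Macrophage and other immune markers summed to 753 to 1369 CPM in F, with Lyz2 the most abundant. They summed to 22.4 to 185 CPM in 2+3d-C (mostly Cd14), 24.6 to 145 in 5d-U and 7.37 to 19.9 in 2d-U. Of the 16 immune markers, 4, 7 and 9 had 0 reads in the 3 libraries of 2+3d-C, with Ptprc, Adgre1 and Mrc1 among them in each. Others were read there, such as Lyz2 at 27.9, 70.2 and 5.20 CPM and Tyrobp at 0.58, 6.27 and 1.19 CPM. In 2+3d-C against 2d-U 6 of 16 immune markers were called higher and 2 lower (37.5% and 12.5%). Of all tested genes 16% and 8.63% were called there. In that comparison 10 of 10 endothelial, 10 of 12 fibroadipogenic, 7 of 10 glial, 7 of 10 pericyte and 7 of 12 MuSC markers were higher. In each of these lists 0 were lower. Adipocyte markers were at no more than 13.1 CPM in sum in any library, and Adipoq had 0 reads in 2d-U. Sdc4, a surface protein of MuSCs, was the most abundant MuSC marker in F, and Myod1 in 2d-U and 5d-U. In F against 2d-U, where 33.3% of all tested genes were called higher, so were 10 of 10 endothelial, 10 of 10 glial, 10 of 10 pericyte, 11 of 12 fibroadipogenic and 15 of 16 immune markers, and 5 of 12 markers of MuSCs. The part of other cells in the levels given below was not tested, and in bulk RNA fewer cells of a type and less RNA per cell cannot be told apart.

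**Figure D1:**
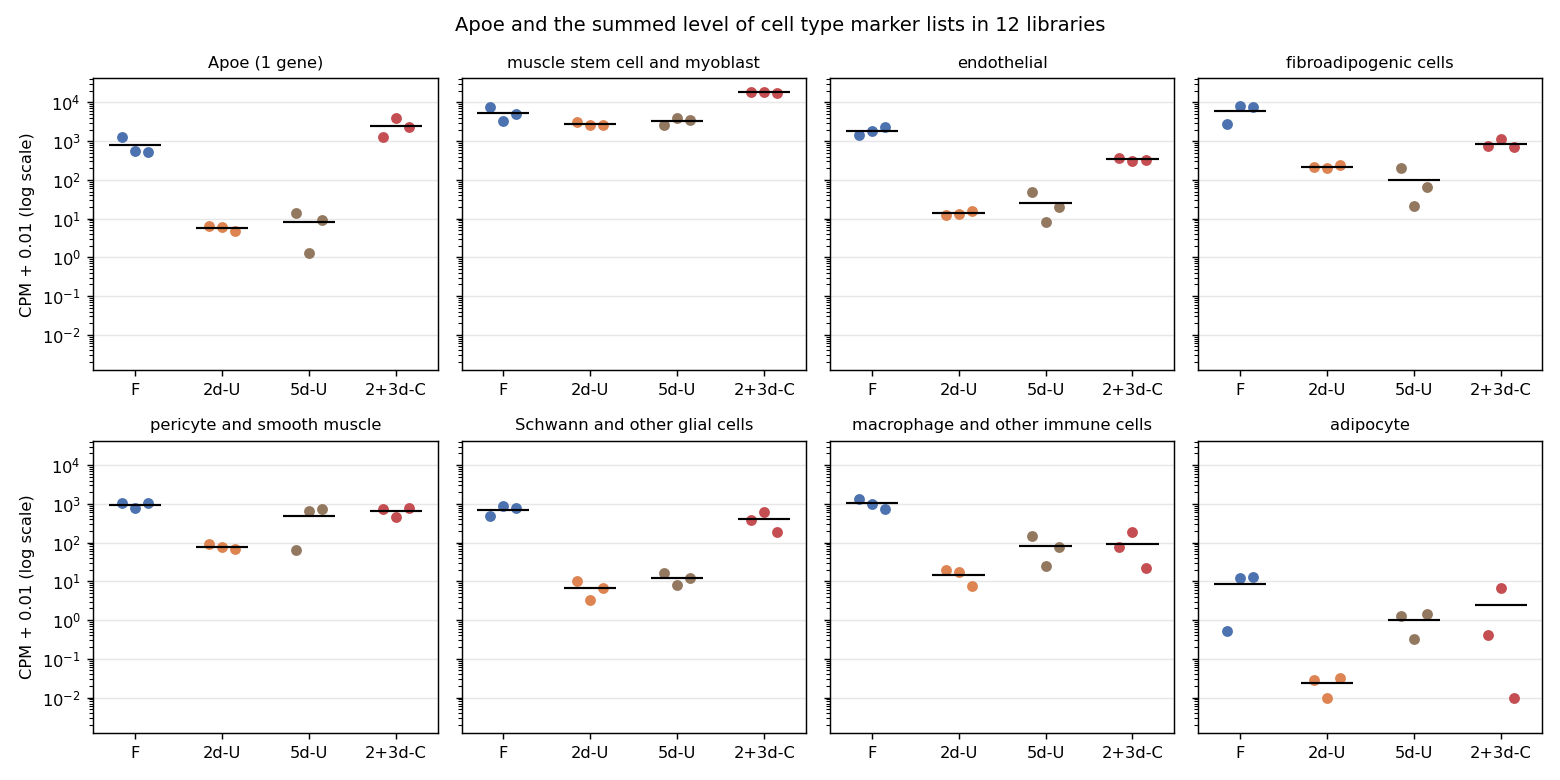
Level of Apoe and summed level of 7 lists of cell type markers in each of the 12 libraries (CPM + 0.01, log scale), with points for libraries and bars for group means. Endothelial, fibroadipogenic and glial sums were higher in F and 2+3d-C than in 2d-U and 5d-U, as Apoe was, while the MuSC sum was highest in 2+3d-C (17417 to 18937 CPM).

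Apoe, the main apolipoprotein made outside the liver and a ligand of lipoprotein receptors, was the most abundant of the 8 genes per length in F and 2+3d-C. It lies at chr7:19696109-19699188 on the minus strand (mm10, gene ENSMUSG00000002985.16). In F it stood at 587, 259 and 239 RPKM in replicates 1, 4 and 5 (362 ± 195, SD, n = 3). In 2d-U it stood at 3.05, 2.84 and 2.18 RPKM (2.69 ± 0.45) and in 5d-U at 6.66, 0.619 and 4.25 RPKM (3.84 ± 3.04). The 3 libraries of 2+3d-C held 594, 1862 and 1079 RPKM (1178 ± 639.6). The order was therefore 2+3d-C, F, 5d-U and 2d-U, without overlap between F and 5d-U and with overlap between 5d-U and 2d-U. The lowest library of 2+3d-C (594) lay just above the highest of F (587), and they overlapped when RPKM were scaled without TMM (508 in 2+3d-C against 575 in F) or with DESeq2 size factors (592 against 634).

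The fitted difference of Apoe between 2+3d-C and 5d-U, on which it was selected, was 8.26 ± 0.895 (log2, SE), 307-fold. Against 2d-U the difference was 8.78 ± 0.914 and against F 1.70 ± 0.669, also without a test because the 2+3d-C libraries are those of the choice. F against 2d-U shares no library with the choice. There Apoe was higher in F by 7.07 ± 0.850 (log2, SE; 135-fold; adjusted p = 7.79e-05, edgeR quasi-likelihood test), in 3 of 3 libraries against 3 of 3. With the 8 libraries low in reads on silent families, which leave 1 library of F, this difference was 7.75 (adjusted p = 0.0015, with the spread taken from the groups that keep more than 1 library). The summed endothelial, fibroadipogenic and glial markers were higher in the same groups, and their part in the level of Apoe was not tested.

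The 250 bases before the annotated start of Apoe and of Abca1, both higher in F and 2+3d-C than in 2d-U, are printed below. RefSeq (GRCm38.p6, the sequence of mm10) gave promoters for 6 of the 8 genes, without Abcg1 and Lpl. The first window is chr7:19699189-19699438 on the minus strand and the second chr4:53159896-53160145 on the minus strand, each written 5' to 3' in the direction of the gene and clear of the exons of other genes. Capitals mark matches, on either strand, to 5 patterns chosen after the sequences were read: AGGTCA (the half-site of many nuclear receptors), GGGCGG (GC box), TATAAA (the box named for its first letters), CACGTG (E box) and CAGCTG (the E box form that MyoD favors).
Apoe: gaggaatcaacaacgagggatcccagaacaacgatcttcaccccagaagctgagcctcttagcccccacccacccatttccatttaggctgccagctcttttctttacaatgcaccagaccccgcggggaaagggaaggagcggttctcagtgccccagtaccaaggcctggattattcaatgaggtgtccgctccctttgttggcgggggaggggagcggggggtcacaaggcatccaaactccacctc
Abca1: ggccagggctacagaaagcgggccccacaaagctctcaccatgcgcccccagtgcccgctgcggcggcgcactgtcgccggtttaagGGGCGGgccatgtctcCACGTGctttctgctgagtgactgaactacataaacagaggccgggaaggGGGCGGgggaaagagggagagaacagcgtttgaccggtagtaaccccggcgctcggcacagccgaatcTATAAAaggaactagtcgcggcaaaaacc
The Abca1 window held 0 matches to AGGTCA, 2 to GGGCGG, 1 to CACGTG and 1 to TATAAA. Among 32851 windows of the same length AGGTCA occurred in 14%, GGGCGG in 32.7%, TATAAA in 12.4%, CACGTG in 6.02% and CAGCTG in 13%. The Apoe window held none of the 5, which says only that these letters are not in this window. The windows at the annotated starts of Apod and Vldlr also held none, and that of Lrp1 held 1 GGGCGG. A second RefSeq start of Vldlr, inside the gene, had 1 match to CAGCTG and 1 to GGGCGG, and a further start inside Apoe had 2 matches to TATAAA. The only AGGTCA was at 1 of the 3 starts given for Lrp8, none of which is the annotated one. These matches describe letters and not bound sites.

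Apod, a small lipid carrier of the lipocalin family that travels with HDL, lies at chr16:31296192-31314808 on the minus strand (ENSMUSG00000022548.14). It stood at 77.5, 199 and 184 RPKM in F (154 ± 66.2) and at 15.4, 33.8 and 6.64 RPKM in 2+3d-C (18.6 ± 13.9). In 2d-U it had 0 reads in replicates 1 and 2 and 0.421 RPKM in replicate 3, and in 5d-U it stood at 2.58, 0.176 and 0.284 RPKM. The levels thus fell into the order F, 2+3d-C, 5d-U and 2d-U, with overlap only between 5d-U and 2d-U. Apod rose in F against 2d-U by 10.03 ± 1.69 (log2, SE; adjusted p = 0.000793) and against 5d-U by 7.24 ± 1.5 (adjusted p = 0.00322), a call lost with the 8 libraries low in silent-family reads (8.77, adjusted p = 0.241). It was also higher in 2+3d-C against 2d-U, by 6.98 ± 1.5 (adjusted p = 0.00406). Both values against 2d-U rest on its replicate 3, without which that group has 0 reads on Apod and the fitted differences (16.52 in F and 13.48 in 2+3d-C) are no estimate of size. Against 5d-U the difference in 2+3d-C was 4.20 ± 1.31, and 6.71 with those 8 libraries, without a test. Between 2+3d-C and F the difference of -3.05 ± 1.23 did not pass the threshold (adjusted p = 0.11), although the 3 libraries of 2+3d-C all lay below those of F. It passed without replicate 3 of 2d-U (adjusted p = 0.0463), with the compared groups alone (adjusted p = 0.0331), without the filter (adjusted p = 1.64e-05) and with the replicate block (adjusted p = 0.00254).

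**Figure D2:**
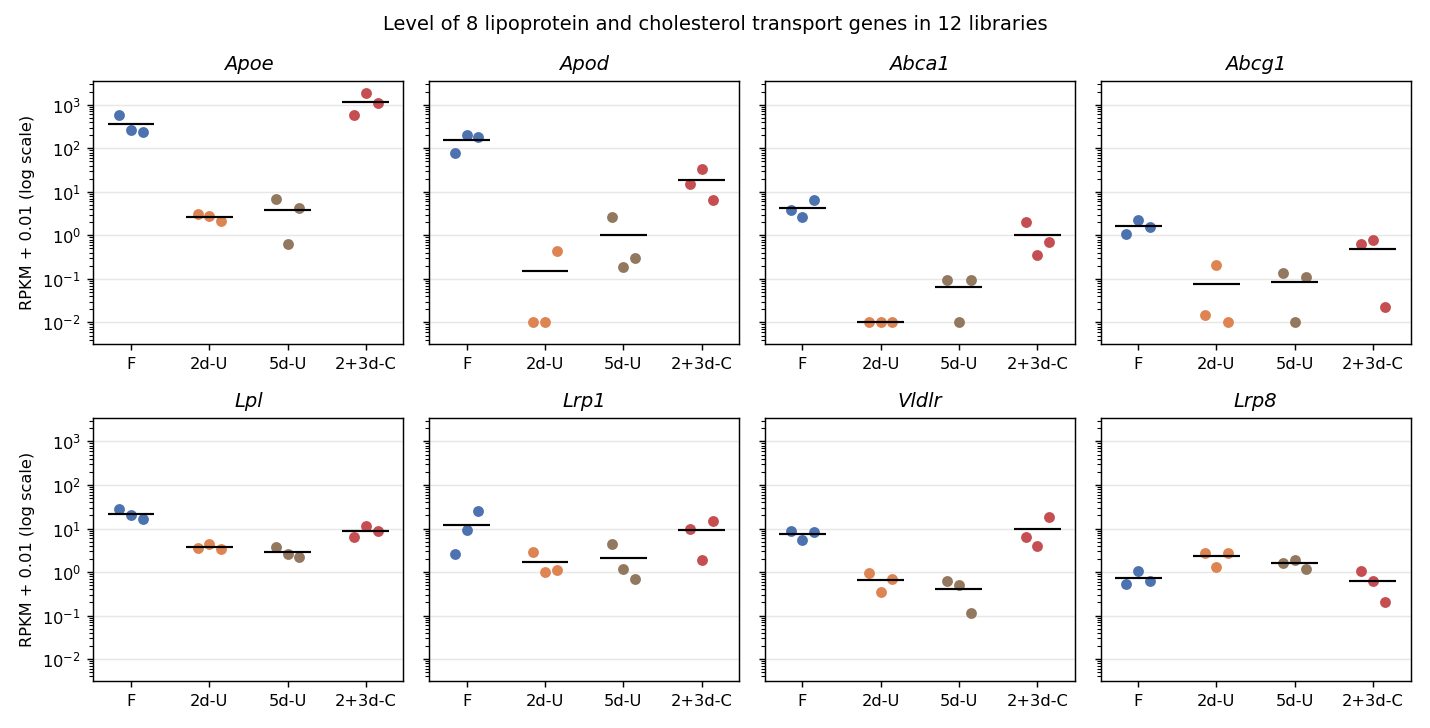
Level of the 8 genes in the 12 libraries (RPKM + 0.01, log scale), with a point per library in order of replicate number and a bar for the mean of each group of 3. Apoe reached 594 to 1862 RPKM in 2+3d-C and 2.18 to 3.05 in 2d-U, and Lrp8 was the only one of the 8 with its highest mean in 2d-U.

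Abca1, which loads cellular cholesterol and phospholipid onto apolipoproteins, lies at chr4:53030787-53159895 on the minus strand (ENSMUSG00000015243.4). Its level in F was 3.76, 2.68 and 6.35 RPKM (4.26 ± 1.88), and in 2+3d-C it was 2.00, 0.337 and 0.678 RPKM (1.00 ± 0.876). None of the 3 libraries of 2d-U had a read on it. In 5d-U replicates 1, 2 and 6 had 20, 0 and 18 reads, or 0.0838, 0 and 0.0848 RPKM, and in replicate 1 this was under the 0.165 RPKM that the density of reads on silent families alone would give. Taking 3 reads in each library as the limit, Abca1 was at least 552-fold higher in F and at least 130-fold higher in 2+3d-C against 2d-U (adjusted p = 0.000322 and 0.000685). F was above 5d-U by 6.25 ± 1.27 (log2, SE; adjusted p = 0.00378), a call lost with the 8 libraries low in silent-family reads (adjusted p = 0.114), where the 1 library of 5d-U has no read on Abca1 and the 1 library of F was at least 373-fold higher, taking 3 reads as the limit. With all libraries 2+3d-C was above 5d-U by 4.17 ± 1.16 (18.1-fold), without a test. Without replicate 4 of 2+3d-C this difference was 3.18. With those 8 libraries Abca1 in 2+3d-C was at least 99.5-fold higher than in the 1 library of 5d-U, by the same limit of 3 reads. Between 5d-U and 2d-U Abca1 did not pass the threshold (adjusted p = 0.0511). It passed without replicate 1 or 2 of 5d-U or without any 1 library of 2+3d-C (adjusted p = 0.0073 to 0.0427). It also passed with DESeq2 (adjusted p = 0.00129), without the filter (adjusted p = 2.96e-05) and with the replicate block (adjusted p = 0.038). All reads of Abca1 in 5d-U, however, lie in replicates 1 and 6, which were set apart for silent-family reads. The density of such reads alone would give 39.5 reads in replicate 1 and 6.57 in replicate 6. With the 8 libraries neither 5d-U nor 2d-U has a read on Abca1, so that fit shows no difference between them. The difference of -2.08 ± 1.04 between 2+3d-C and F did not pass the threshold (adjusted p = 0.162).

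Abcg1, which passes cholesterol on to lipoprotein particles that already hold lipid, lies at chr17:31057675-31117988 on the plus strand (ENSMUSG00000024030.7) and had few reads outside F and 2 libraries of 2+3d-C. It stood at 1.06, 2.27 and 1.51 RPKM in F and at 0.631, 0.76 and 0.0125 RPKM in 2+3d-C, where replicate 10 had 2 reads. In 2d-U there were 2, 37 and 0 reads, and in 5d-U 21, 0 and 15. The libraries of F all lay above those of the other groups, whereas 2+3d-C overlapped both uncompressed groups. In F the difference to 2d-U was 4.6 ± 1.87 (log2, SE) and missed the threshold (adjusted p = 0.0563). Without replicate 2 of 2d-U, which held 37 of its reads there, the difference was 8.95 and passed (adjusted p = 0.0109), and it also passed without replicate 1 or 2 of 5d-U or replicate 4 or 10 of 2+3d-C (adjusted p = 0.0282 to 0.0491), with DESeq2 (adjusted p = 0.0145) and without the filter (adjusted p = 0.00446). Against 2d-U the difference in 2+3d-C was 2.81 ± 1.74 (adjusted p = 0.263), and it passed without that same 2d-U library (7.17, adjusted p = 0.0292). The difference to 5d-U was 2.63 ± 1.73 in 2+3d-C, without a test, and 4.43 ± 1.86 in F (adjusted p = 0.115). The latter passed with DESeq2, without the filter, with the compared groups alone and with silent-family reads subtracted (adjusted p = 0.00438 to 0.043).

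Lpl, lipoprotein lipase, lies at chr8:68880491-68907448 on the plus strand (ENSMUSG00000015568.16) and had the smallest SE of the 8 genes in each comparison. Its level was 27.6, 20.7 and 17 RPKM in F (21.8 ± 5.41) and 6.32, 11.5 and 8.97 RPKM in 2+3d-C (8.94 ± 2.61). In 2d-U it was 3.57, 4.38 and 3.33 RPKM and in 5d-U 3.71, 2.65 and 2.21 RPKM. F was above 2+3d-C, and 2+3d-C above 2d-U, without overlap, while 2d-U and 5d-U overlapped. Without TMM 2+3d-C and 2d-U overlapped. Lpl rose in F against 2d-U by 2.53 ± 0.403 (log2, SE; adjusted p = 0.000547) and against 5d-U by 2.93 ± 0.41 (adjusted p = 0.000316), the latter lost with the 8 libraries low in silent-family reads (3.37, adjusted p = 0.0638). In 2+3d-C against 2d-U it was higher by 1.25 ± 0.387 (adjusted p = 0.0296). This call was lost without any 1 library of 2d-U or without replicate 5 or 10 of 2+3d-C (adjusted p = 0.0728 to 0.151). It was also lost with library sizes without TMM (0.63 on the log2 scale, adjusted p = 0.265), without the filter (1.2, adjusted p = 0.164) and with the replicate block (1.61, adjusted p = 0.512). Against 5d-U the difference in 2+3d-C was 1.64 ± 0.391, without a test. Against F it was -1.28 ± 0.387 (adjusted p = 0.0587) and passed without replicate 1 of F (adjusted p = 0.0422), with DESeq2 (adjusted p = 0.00173), without TMM (adjusted p = 0.0261) and with silent-family reads subtracted (adjusted p = 0.0359).

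Lrp1, a large endocytic receptor that binds ApoE-bearing remnants and many other ligands, lies at chr10:127538161-127621148 on the minus strand (ENSMUSG00000040249.15). It varied widely within groups. In F it stood at 2.64, 9.02 and 25 RPKM, in 2+3d-C at 9.91, 1.91 and 15.3 RPKM, in 5d-U at 4.51, 1.16 and 0.695 RPKM and in 2d-U at 2.86, 1.02 and 1.08 RPKM. All neighbors in the order F, 2+3d-C, 5d-U and 2d-U overlapped. Lrp1 was higher in F than in 2d-U by 2.89 ± 0.922 (log2, SE; adjusted p = 0.0261) even though replicate 1 of F lay below replicate 1 of 2d-U. This call was lost without replicate 5 of F, the library with 7.13 silent-family reads per kb (1.82, adjusted p = 0.125), without 2d-U library 2 or 3 (adjusted p = 0.0699 and 0.0708) and with the 8 libraries low in such reads (0.66, adjusted p = 0.706). In 2+3d-C the difference was 2.45 ± 0.906 to 2d-U (adjusted p = 0.0616) and 2.09 ± 0.895 to 5d-U, without a test. Without replicate 5 of 2+3d-C the former passed (2.93, adjusted p = 0.0219), as it did without replicate 1 or 6 of 5d-U or replicate 1 of 2d-U (adjusted p = 0.0238 to 0.0462), with DESeq2 (adjusted p = 0.0418) and without the filter (adjusted p = 0.00022). F against 5d-U gave 2.52 ± 0.909 (adjusted p = 0.0644), which passed without replicate 1 of 5d-U (3.70), replicate 1 of 2d-U, replicate 5 or 10 of 2+3d-C or replicate 1 of F (adjusted p = 0.00808 to 0.0476), with DESeq2 (adjusted p = 0.0125), without the filter (adjusted p = 3.43e-05) and with silent-family reads subtracted (adjusted p = 0.0481).

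Vldlr, the receptor for ApoE-bearing VLDL that is abundant in muscle and also binds reelin, lies at chr19:27216484-27254231 on the plus strand (ENSMUSG00000024924.14). It shared with Apoe the highest mean in 2+3d-C, where its libraries stood at 6.49, 3.88 and 18.6 RPKM (9.66 ± 7.86). In F they stood at 8.87, 5.58 and 8.3 RPKM (7.58 ± 1.76), within the range of 2+3d-C. In 2d-U the levels were 0.963, 0.342 and 0.685 RPKM and in 5d-U 0.604, 0.484 and 0.102 RPKM, all below those of F and 2+3d-C. Vldlr rose in F against 2d-U by 3.51 ± 0.728 (log2, SE; adjusted p = 0.00289) and against 5d-U by 4.25 ± 0.755 (adjusted p = 0.00125). In 2+3d-C it was higher than in 2d-U by 3.86 ± 0.74 (adjusted p = 0.00189), and than in 5d-U by 4.6 ± 0.768, without a test. The 3 tested calls held without each of the 12 libraries in turn. That of F against 5d-U was lost with the 8 libraries low in silent-family reads (4.19). That of 2+3d-C against 2d-U was lost with the replicate block (3.02, adjusted p = 0.118). Between 2+3d-C and F the difference was 0.35 ± 0.659 (adjusted p = 0.749) and changed sign without replicate 10 of 2+3d-C (-0.54).

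Lrp8, also called ApoER2, which like Vldlr binds reelin and ApoE, lies at chr4:107801869-107876840 on the plus strand (ENSMUSG00000028613.15). It went the other way. In 2d-U it stood at 2.76, 1.28 and 2.78 RPKM (2.28 ± 0.861) and in 5d-U at 1.62, 1.90 and 1.18 RPKM (1.57 ± 0.364). F held 0.514, 1.04 and 0.629 RPKM and 2+3d-C 1.08, 0.608 and 0.194 RPKM. The libraries of F and 2+3d-C were all below those of 2d-U and 5d-U, but without TMM and with DESeq2 size factors both F and 2+3d-C overlapped 5d-U. No difference passed the threshold in the edgeR fit, with -1.64 ± 0.647 in F against 2d-U (log2, SE; adjusted p = 0.0513), -1.86 ± 0.652 in 2+3d-C against 2d-U (adjusted p = 0.0504) and -1.10 ± 0.639 in F against 5d-U (adjusted p = 0.278). With DESeq2 both differences to 2d-U passed (-1.44, adjusted p = 0.0464, in F and -1.91, adjusted p = 0.0101, in 2+3d-C), as they did with silent-family reads subtracted (adjusted p = 0.0431 and 0.0401). That of 2+3d-C passed without TMM (adjusted p = 0.019) and that of F with the compared groups alone (adjusted p = 0.0255). Without replicate 4 of 2+3d-C both differences to 2d-U passed (adjusted p = 0.0408 and 0.0255), and that of F passed also without replicate 5 or 10 of 2+3d-C (adjusted p = 0.0464 and 0.0278). In 2+3d-C against 5d-U the difference was -1.32 ± 0.643, without a test. Counting used no strand, and 1.55% of the exon bases of Lrp8 overlap the antisense gene Lrp8os3, the only such overlap among the 8 genes.

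Counted over the 8 genes, F against 2d-U gave 6 called higher and 0 called lower (adjusted p-value under 0.05), where 33.3% of the 22635 tested genes were higher in F and 10.6% lower. This is the comparison that shares no library with the choice of Apoe. The median difference of all tested genes was itself 1.63 (log2) there. Abcg1 and Lrp8 were the 2 not called. In the comparisons that include 2+3d-C or 5d-U Apoe is left out of the counts, since its choice used those libraries. Of the other 7 genes Apod, Abca1, Lpl and Vldlr were called higher and 0 lower in F against 5d-U (background 8.9% and 11.6%), and 0 of 7 when the 4 libraries with silent-family reads were left out, with a single library in each group. In 2+3d-C against 2d-U the same 4 genes were called higher and 0 lower (background 16% and 8.63%), also with the 8 libraries low in silent-family reads. The call of Lpl was lost under the settings named above, and that of Vldlr with the replicate block. For 2+3d-C against 5d-U, the comparison of the choice, no count of calls is given as a result. All tested genes had a median difference of -1.05 in that comparison.

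Between 2+3d-C and F 0 of these 7 were called (background 1.94% higher and 4.47% lower), with 2 at an unadjusted p under 0.05 (Apod and Lpl) and 1, Lpl, called by DESeq2. Without replicate 3 of 2d-U Apod was called, and without replicate 1 of F Lpl. Between 5d-U and 2d-U 0 of 7 were called (background 1.87% higher and 0.243% lower), with 2 at an unadjusted p under 0.05 (Apod and Abca1) and 1, Abca1, called by DESeq2. It was 1 without replicate 1 or 2 of 5d-U, replicate 3 of 2d-U or any 1 library of 2+3d-C. A p that misses the threshold does not show that the groups did not differ. The comparisons that include 2+3d-C or 5d-U share libraries with one another and with the choice of Apoe, so that their counts are not independent.

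**Figure D3:**
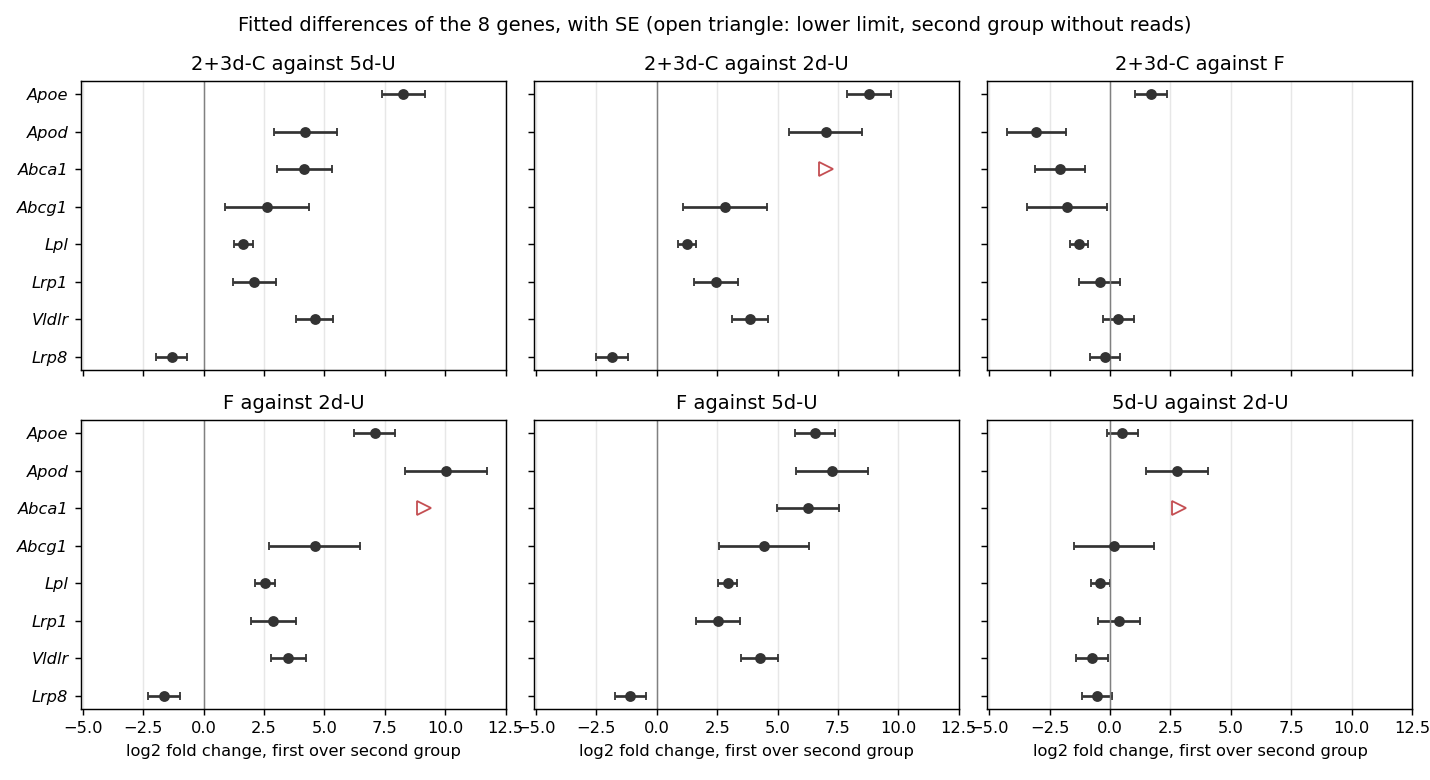
Fitted log2 fold changes of the 8 genes in the 6 comparisons, with bars for 1 SE, where open triangles give the lower limit for Abca1 against 2d-U, a group without reads on it. Apoe to Vldlr lie to the right of 0 in the 4 comparisons of F or 2+3d-C with 2d-U or 5d-U, and Lrp8 lies to the left in each of these.

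Across the 12 libraries the log2 CPM of Apoe went with that of Vldlr (Pearson r = 0.878), Abca1 (0.869), Apod (0.834) and Lpl (0.822), less with Abcg1 (0.666) and Lrp1 (0.654), and opposite to Lrp8 (-0.807). The libraries fall into groups whose mean levels of these genes differ, though no difference of Abcg1 or Lrp8 passed the threshold in the main fit. These values therefore describe the group pattern and carry no p. Among 8842 named genes whose mean CPM was 10 or more, the 5 most like Apoe were H2-K1 (r = 0.991), Rhoj (0.989), Tspan15 (0.985), Serping1 (0.985) and Rora (0.983). H2-K1 encodes a class I histocompatibility chain and has close copies between which reads may be split, so its level is uncertain. Serping1, the inhibitor of complement C1, stood at 475 to 541 RPKM in F, 597 to 1127 in 2+3d-C, 0.437 to 0.641 in 2d-U and 0.225 to 1.39 in 5d-U. For the other members the gene most alike was Apold1 for Apod (0.990), Scara5 for Abca1 (0.989), Usp18 for Abcg1 (0.953), Ctla2a for Lpl (0.979), Nek9 for Lrp1 (0.955), Zbtb46 for Vldlr (0.981) and Kat14 for Lrp8 (0.968). The 5 most alike held listed markers of other cell types, Vwf (0.982) and Lum (0.974) for Apod, and Flt1 (0.988) and Myh11 (0.984) for Abca1. The part of such cells was not tested. By Spearman's rho the gene ranked first by Pearson remained first for Lrp8, and ranked 12 for Apoe.

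Other genes of lipoprotein and cholesterol transport were taken from 7 lists chosen by function, with 109 genes of which 98 could be tested. F exceeded 2d-U in 55 of the 98 and was lower in 3, 56.1% and 3.06% where 33.3% and 10.6% of all tested genes were called, with a median log2 difference of 2.11 against 1.63. In F against 5d-U 29 were higher and 3 lower (29.6% and 3.06%, background 8.9% and 11.6%). In 2+3d-C against 2d-U 34 were higher and 5 lower (34.7% and 5.1%, background 16% and 8.63%), with a median of 1.49 against 0. In 2+3d-C against 5d-U 29 were higher and 11 lower (29.6% and 11.2%, background 9.14% and 13.4%), with a median of 0.91 against -1.05. With 1 library left out these counts were 16 to 32 higher and 3 to 9 lower. With the 8 libraries low in silent-family reads fewer genes were called higher in each of these 4 comparisons, where F and 5d-U have 1 library each. Among all tested genes, too, fewer were called higher in that fit in each of these 4 comparisons. Whether these lists fell by more than all genes was not tested. Between 2+3d-C and F 1 was higher and 5 lower (1.02% and 5.1%, background 1.94% and 4.47%), and between 5d-U and 2d-U 2 were higher and 0 lower (2.04% and 0%, background 1.87% and 0.243%). Counts in these 2 comparisons moved widely, to 23 lower and 22 higher with DESeq2, where 4428 and 3109 of 49901 fitted genes were called. Gpihbp1, Cd36 and Stab1, named below, are known from endothelium, so the endothelial sums given above (1409 to 2296 CPM in F and 305 to 374 in 2+3d-C) stand beside these counts, and their part was not tested. The counts of the single lists below stand against the same background, 33.3% higher and 10.6% lower in F against 2d-U and 9.14% and 13.4% in 2+3d-C against 5d-U, and describe these lists only.

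Of 11 further apolipoproteins and plasma transfer proteins, 7 were higher in F than in 2d-U and 0 lower, and 2 were higher and 2 lower in 2+3d-C against 5d-U. Clu (clusterin, or ApoJ), a lipid-binding chaperone, stood at 105 ± 13.4 RPKM in F, 1.52 ± 2.38 in 2d-U, 0.269 ± 0.182 in 5d-U and 29.3 ± 9.01 in 2+3d-C, and was higher in F than in 2d-U by 6.10 ± 1.33 (log2, SE; adjusted p = 0.00397), or 9.33 without replicate 3 of 2d-U. Pltp, which moves phospholipid between lipoproteins, was higher in F than in 2d-U by 7.89 ± 0.993 (adjusted p = 0.000104), at 40.2 ± 15.7 against 0.162 ± 0.141 RPKM, and stood at 5.88 ± 1.52 RPKM in 2+3d-C. In both, as in Apod, the mean was highest in F and second in 2+3d-C.

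Of 11 lipases and their regulators, 8 were higher in F than in 2d-U and 5 were higher in 2+3d-C against 5d-U, with 0 lower in either. Gpihbp1, the protein of capillary endothelium that anchors lipoprotein lipase, had 0 reads in 2d-U and was at least 710-fold higher in F (22.3 ± 4.86 RPKM) and at least 235-fold higher in 2+3d-C (7.37 ± 2.8 RPKM), with 0.0885 ± 0.0852 RPKM in 5d-U. Pnpla2, the lipase that starts the breakdown of triglyceride in lipid droplets, stood at 54.9 ± 10.8 RPKM in F, 14.9 ± 3.44 in 2d-U, 8.65 ± 3.7 in 5d-U and 61.4 ± 7.18 in 2+3d-C, and was higher in F than in 2d-U by 1.88 ± 0.409 (log2, SE; adjusted p = 0.0039). Angptl4, a secreted inhibitor of lipoprotein lipase, was the most abundant of the list by the mean over all libraries, although Pnpla2 stood higher in F. Angptl4 stood at 26.6 ± 0.783 RPKM in F, 56.2 ± 3.89 in 2d-U, 41.3 ± 16.1 in 5d-U and 94.2 ± 63 in 2+3d-C. It did not pass the threshold in F against 2d-U (adjusted p = 0.0745).

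Of 18 other receptors, 10 were higher in F than in 2d-U and 0 lower, and 4 were higher and 4 lower in 2+3d-C against 5d-U. Cd36, a scavenger receptor and fatty acid transporter, stood at 228 ± 127 RPKM in F, 0.098 ± 0.17 in 2d-U, 1.2 ± 1.59 in 5d-U and 19.7 ± 1.31 in 2+3d-C (F against 2d-U 11.36 ± 1.73, log2, SE, adjusted p = 0.000403), and replicate 2 was the only library of 2d-U with reads on it. Stab1, a scavenger receptor of sinusoidal endothelium and macrophages, had at most 1 read in a library of 2d-U and was at least 228-fold higher in F. Lrp6, a Wnt co-receptor, stood at 5.41 ± 2.15 RPKM in F, 1.07 ± 0.354 in 2d-U, 1.27 ± 0.174 in 5d-U and 7.53 ± 1.6 in 2+3d-C. It was higher in F than in 2d-U by 2.34 ± 0.442 (adjusted p = 0.00163). Lrp10 stood at 10.2 to 23.9 RPKM in the group means and did not pass in F against 2d-U (adjusted p = 0.236).

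Of 10 chaperones, adaptors and ligands of these receptors, 5 were higher in F than in 2d-U and 2 lower, and 2 were higher and 0 lower in 2+3d-C against 5d-U. Lrpap1, the chaperone that keeps receptors of this family free of ligand on their way to the surface, was higher in F than in 2d-U by 1.33 ± 0.494 (log2, SE; adjusted p = 0.0432) and stood at 81.1 ± 25.6 RPKM in 2+3d-C. Mylip (IDOL), the ubiquitin ligase through which LXR lowers receptors such as Vldlr and Lrp8, was higher in F by 5.45 ± 1.16 (adjusted p = 0.00333), at 17.6 ± 3.12 against 0.402 ± 0.373 RPKM, and stood at 5.93 ± 3.43 RPKM in 2+3d-C. Dab2, an endocytic adaptor, was higher in F by 2.82 ± 0.604 (adjusted p = 0.00346). Snx17, which returns Lrp1 to the surface, was lower in F (-1.13 ± 0.352, adjusted p = 0.0237).

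Of 14 other ABC transporters of sterols and lipids, 10 were higher in F than in 2d-U and 0 lower, and 5 were higher and 1 lower in 2+3d-C against 5d-U. Abca8a stood at 22.2 ± 12.1 RPKM in F, 17.9 ± 13.2 in 2+3d-C and 0.0496 ± 0.0362 in 5d-U and had 0 reads in 2d-U, at least 1737-fold higher in F and at least 1402-fold higher in 2+3d-C against 2d-U. Abcg2, an exporter of many compounds known as a marker of side population cells, was higher in F than in 2d-U by 1.19 ± 0.435 (log2, SE; adjusted p = 0.041) but stood lower in 2+3d-C (2.03 ± 0.893 RPKM) than in 5d-U (7.71 ± 2.57). Of 11 nuclear receptors and co-repressors of sterol efflux, 6 were higher in F than in 2d-U and 1 lower, and 3 were higher and 1 lower in 2+3d-C against 5d-U. Nr1h2 (LXR beta), which responds to oxysterols and drives Abca1, Abcg1 and Apoe, stood at 26 ± 3.28 RPKM in F, 24.6 ± 0.841 in 2d-U, 18.4 ± 0.274 in 5d-U and 47 ± 11.8 in 2+3d-C and did not pass in F against 2d-U (adjusted p = 0.863). Rxrb was lower in F than in 2d-U (-1.05 ± 0.385, adjusted p = 0.0421), and Pparg was higher by 2.91 ± 0.723 (adjusted p = 0.00804). Ppard stood at 2.76 ± 1.43 RPKM in 2+3d-C and 0.314 ± 0.191 in 5d-U.

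Of 23 genes of sterol movement and storage inside cells, 9 were higher in F than in 2d-U (39.1%, near the 33.3% of all tested genes) and 0 lower, and 8 were higher and 3 lower in 2+3d-C against 5d-U. Cav1, the main protein of caveolae, stood at 264 ± 86.2 RPKM in F, 39.5 ± 4.39 in 2d-U, 37.6 ± 20.5 in 5d-U and 256 ± 77.2 in 2+3d-C (F against 2d-U 2.74 ± 0.479, log2, SE, adjusted p = 0.00101). Ch25h, which makes the oxysterol 25-hydroxycholesterol, was higher in F than in 2d-U by 5.27 ± 0.907 (adjusted p = 0.000906) and stood at 6.54 ± 3.94 RPKM in 2+3d-C against 0.863 ± 0.926 in 5d-U. Abhd2 was higher in F than in 2d-U by 1.59 ± 0.478 (adjusted p = 0.0202), but by 0.91 and no longer past the threshold without replicate 5 of F, and stood at 13 ± 1.76 RPKM in 2+3d-C. Tspo, a protein of the outer mitochondrial membrane that binds cholesterol, did not pass in F against 2d-U (adjusted p = 0.164).

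Cells can also make cholesterol from acetyl-CoA. Of 24 tested genes of sterol synthesis, 2 were higher and 1 lower in F than in 2d-U, 4 higher and 1 lower in 2+3d-C against 2d-U (16.7% and 4.17%, background 16% and 8.63%), and 3 higher and 2 lower in 2+3d-C against 5d-U. Insig2, which holds back the SREBP factors that switch on synthesis and uptake, stood at 49.8 ± 56.9 RPKM in F, 7.61 ± 1.04 in 2d-U, 17.4 ± 7.98 in 5d-U and 103 ± 33.4 in 2+3d-C, and was higher in F than in 2d-U by 2.71 ± 0.686 (log2, SE; adjusted p = 0.00889), a difference that fell to 1.25 without replicate 1 of F, which stood at 115.5 RPKM against 16.1 and 17.8 in the other libraries of F. Mvk, mevalonate kinase, stood at 0.14 ± 0.133 RPKM in 2+3d-C and 9.77 ± 5.55 in 5d-U. Srebf2 did not pass in F against 2d-U (adjusted p = 0.0733).

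Of 25 genes of fatty acid uptake, droplets and oxidation, 7 were higher and 4 lower in F than in 2d-U (28% and 16%, near the background), and 3 higher and 7 lower in 2+3d-C against 5d-U. Plin2, the coat protein of lipid droplets, was lower in F than in 2d-U (-2.84 ± 0.478, log2, SE, adjusted p = 0.000793), at 23.1 ± 8.48 against 165.1 ± 18.4 RPKM, with 165.1 ± 95.4 in 5d-U and 12.4 ± 4.35 in 2+3d-C. G0s2, the inhibitor of the lipase Pnpla2, was lower in F than in 2d-U (-3.69 ± 0.814, adjusted p = 0.00417). Fabp4, a fatty acid carrier of adipocytes and capillary endothelium, was higher in F than in 2d-U by 9.96 ± 1.04 (adjusted p = 3.25e-05), while Fabp5 was lower (-2.30 ± 0.674, adjusted p = 0.018). In 2+3d-C Fabp4 stood at 28.7 ± 19.1 RPKM and Fabp5 at 1.01 ± 0.977, against 0.428 ± 0.474 and 70 ± 38.3 in 5d-U. Among the related genes named with a call in F against 2d-U, those of Lrpap1, Snx17, Abcg2, Rxrb, Abhd2 and Fabp5 were lost when 1 or another library was left out. With the 8 libraries low in silent-family reads, which hold 1 library of F, these 6 and the calls of Clu, Dab2, Mylip, Pnpla2, Pparg and G0s2 were lost. The log2 differences in that fit were 5.93 (Clu), 1.89 (Dab2), 5.17 (Mylip), 1.51 (Pnpla2), 3.13 (Pparg) and -3.28 (G0s2). For the other 6 they were 1.33 (Lrpap1), -1.13 (Snx17), 1.51 (Abcg2), -1.08 (Rxrb), 1.05 (Abhd2) and -1.46 (Fabp5).

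**Figure D4:**
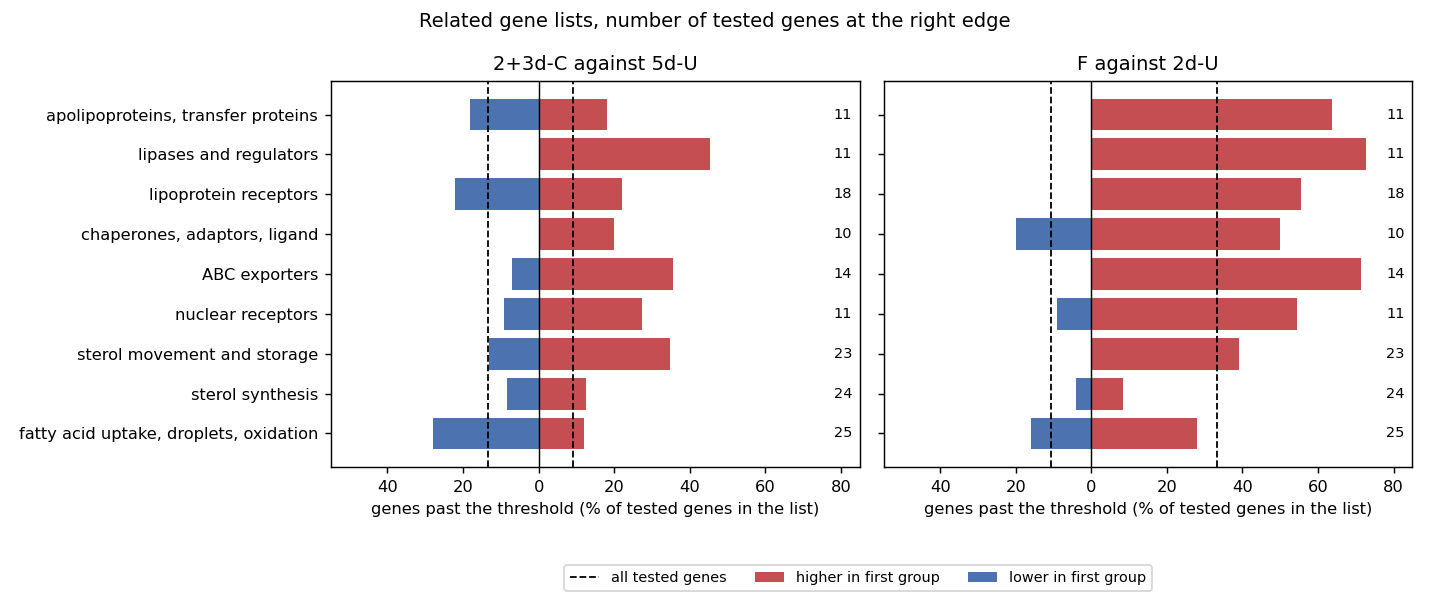
Share of the tested genes of 9 lists called higher (right) or lower (left) in 2+3d-C against 5d-U and in F against 2d-U, with the number of tested genes at the right edge and dashed lines for all 22635 tested genes. Of the lipases and regulators 8 of 11 were higher in F than in 2d-U, and of the sterol synthesis genes 2 of 24.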

How the data were processed

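The authors aligned 75-base single-end reads of amplified SMART-seq cDNA to mm10 with the nf-core pipeline and deposited whole-number counts per gene of GENCODE vM23, made with featureCounts 1.6.4 without regard to strand and without normalization. Group membership followed the labels. In R 4.3.3, edgeR 4.0.16 kept the 22635 genes that pass filterByExpr, scaled by TMM and fitted 1 quasi-likelihood model to all 12 libraries. Tests were two-sided, with p-values adjusted by Benjamini-Hochberg over all 22635 and a threshold of 0.05, and the SE is the fold change over the root of F. With 3 libraries against 3 an exact permutation test cannot go below 0.1, so none was made on single values. Likeness used log2 CPM with a prior count of 2. The procedure was tested on simulated data. The members and lists were chosen with earlier results of these data known. Of the marker lists Pax7, abundant genes of most lists and some of the genes without reads in a group were named. All members and the genes most like each member were named. Of each related list the 2 genes of highest mean RPKM were named. So were those with the smallest p in F against 2d-U and in 2+3d-C against 5d-U. Gpihbp1, Cd36 and other genes named by this rule were not chosen for their direction. Replicate numbers did not pair libraries, since same-numbered libraries had deviations correlated at -0.42 to 0.03. Alternatives were DESeq2 1.42.0, no TMM, no filter, the compared groups alone, a replicate block, subtraction of silent-family reads, RPKM under other scalings, and each library left out. A fit of the 8 libraries low in silent-family reads was added after the data were seen. Not analysed here was a merged table of the same counts.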

Additional observations from a re-analysis of the deposited data

How the results depend on the processing

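The fitted differences of Apoe, Apod, Abca1, Lpl and Vldlr between F or 2+3d-C and the uncompressed groups kept their sign under every alternative. Between F and 2d-U the count of members was 5 to 8 with 1 library left out. All genes called higher there ran from 3584 of 27070 to 14107 of 27750. Counts of members here include Apoe in every comparison. Where 2+3d-C or 5d-U enters they describe how the fit moved and are no test of Apoe. Counts of members in 2+3d-C against F, 0 as reported, were 1 with DESeq2, without TMM, with the compared groups alone and with silent-family reads subtracted. They were 2 without the filter. All genes called lower there were 1011 of 22635 in the main fit. With DESeq2 they were 4428 of 49901, without TMM 1209 of 22635, and with the groups alone 1357 of 16696. With subtraction they were 787 of 18698, and without the filter 2240 of 49901, with 554 higher. In 5d-U against 2d-U the count of members, also 0, was 1 with DESeq2 and 2 without the filter. All genes higher there were 424 of 22635 in the main fit, 3109 of 49901 with DESeq2 and 1867 of 49901 without the filter. Leaving out 1 library gave 0 to 2 and 0 to 1 members in these 2 comparisons. With the 8 libraries low in silent-family reads F and 5d-U keep 1 library each, which limits what could be called. No count of members is given here for 2+3d-C or F against 5d-U in that fit.

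With the replicate block the count was 3 in 2+3d-C against 2d-U (2 without Apoe), where 1090 of 22635 genes were higher. It was 1 in 2+3d-C against F (Apod, with 1690 genes lower) and 2 in 5d-U against 2d-U (Apod and Abca1, with 642 higher). For 2+3d-C against 5d-U, the comparison of the choice, no count is given. The differences there were 1.87 (Apod), 3.25 (Abca1), 1.94 (Lpl) and 3.12 (Vldlr) on the log2 scale. The calls of Lpl and Vldlr in 2+3d-C against 2d-U were the 2 lost there (1.61 and 3.02, adjusted p = 0.512 and 0.118). Lrp1 then reversed to -2.44, -2.01, -0.24 and -0.66 (2+3d-C against 5d-U and 2d-U, F against 2d-U and 5d-U), Vldlr to -0.44 in 2+3d-C against F, and Apoe to -0.48 and Abcg1 to -0.46 in 5d-U against 2d-U. Related genes were then 10 higher in 2+3d-C against 5d-U (728 of all 22635), and 10 higher and 3 lower against 2d-U (1090 and 836). In 2+3d-C against F 15 were lower (1690). In F against 2d-U 23 were higher and 1 lower (2151 and 588), and against 5d-U 15 and 1 (829 and 432). The numbers do not pair the libraries, and the cause was not tested.

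In 5d-U against 2d-U Abcg1, with 0 to 37 reads per library there, reversed to -0.069 (DESeq2), -0.29 (no TMM), -0.16 (no filter), -0.19 (groups alone), -1.87 (subtraction) and -7.00 (8 libraries), and ran from -0.42 to 4.54 with 1 library left out. With 1 library left out Apoe ran from -0.14 to 1.02 and Lrp1 from -0.83 to 1.02 there, and in 2+3d-C against F Lrp1 from -1.03 to 0.63, Vldlr from -0.54 to 0.74 and Lrp8 from -0.87 to 0.23. With the 8 libraries Lrp1 was 1.78 and Lrp8 0.30 in 2+3d-C against F, and Apoe -2.13 and Lrp1 -0.52 in 5d-U against 2d-U.

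Counts of related genes moved as follows. Here and with the replicate block the number of all genes called is given with them, mostly in parentheses. It is not given for the 8 libraries or where 1 library was left out. The counts show how the lists moved and not whether these lists differed from other genes. DESeq2 gave 2 higher and 23 lower in 2+3d-C against F, where 887 and 4428 of all 49901 fitted genes were. In F against 5d-U it gave 47 higher (all genes 3908), and in 5d-U against 2d-U 22 higher and 5 lower (3109 and 404). Without TMM there were 8 lower in 2+3d-C against 2d-U (3143 of all 22635) and 0 higher in 2+3d-C against F (145). In F against 5d-U 1 was lower (2160), and in 5d-U against 2d-U 0 were higher (126). Without the filter there were 15 lower in 2+3d-C against F (2240 of all 49901) and 1 lower in F against 2d-U (2390). There was 1 lower in F against 5d-U (2190), and 15 higher and 3 lower in 5d-U against 2d-U (1867 and 199). The compared groups alone gave 3 lower in 2+3d-C against 5d-U (2287 of all 15055). They gave 21 higher and 2 lower in 2+3d-C against 2d-U (2209 and 1859 of 13635). In 2+3d-C against F 0 were higher and 11 lower (177 and 1357 of 16696). In F against 2d-U 6 were lower (3174 of 17050). In 5d-U against 2d-U 4 were higher and 2 lower (479 and 289 of 14548). Subtraction gave 6 lower in 2+3d-C against 5d-U (2770 of all 18698). It gave 0 higher in 2+3d-C against F (364) and 0 higher in 5d-U against 2d-U (90). The 8 libraries gave 5 higher and 1 lower in 2+3d-C against 5d-U, 19 and 2 in 2+3d-C against 2d-U, 13 and 0 in F against 2d-U, and 0 and 0 in 2+3d-C against F and in F against 5d-U, with 0 higher in 5d-U against 2d-U. Leaving out 1 library gave 16 to 32 higher and 3 to 9 lower in 2+3d-C against 5d-U, 0 to 4 lower in 2+3d-C against 2d-U, 0 to 1 higher and 2 to 25 lower in 2+3d-C against F, 0 to 5 lower in F against 2d-U, 0 to 4 lower in F against 5d-U and 0 to 10 higher in 5d-U against 2d-U.

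Abca1 and Abcg1 had 0 to 37 reads in each library of 2d-U and 5d-U, and so few reads limit the precision of their fold changes.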
